A study of Mus musculus with 32 samples.

Results

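Livers of mice with diet-induced steatohepatitis were compared at 2 collection times that lie 12 h apart, zeitgeber time 20 (ZT20) and zeitgeber time 8 (ZT8), where zeitgeber time is by convention counted in hours from lights on. The animals were wild-type mice given for 2 weeks a high-fat diet that is free of choline and low in methionine (cdHFD). The comparison takes the 4 cdHFD ZT20 libraries and the 4 cdHFD ZT8 libraries, 8 of the 32 libraries of the series, and each group holds 2 males (replicates 1 and 2) and 2 females (replicates 3 and 4). Livers of wild-type mice kept on chow for the same 2 weeks show the same 2 times without the diet, with 4 livers each. The other 16 libraries (ZT2 and ZT14 of both diets) share the estimate of the spread and show where a gene stands at other times. In the cdHFD ZT14 group replicates 1 to 3 are male and replicate 4 is female, so its means are not balanced by sex. The pair was chosen with counts of changed genes known: of the 12 h pairs under cdHFD, ZT20 against ZT8 gave 571 genes past the threshold and ZT14 against ZT2 gave 72. It is not the largest of all pairs of times, since ZT20 against ZT14 gave 1150. The labels give no strain, age or light schedule, and they do not say that each replicate number is another animal. The p-values set a difference against the spread pooled over all 32 libraries, so they speak of these samples and no more.

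The liver clock is a loop of transcription in which the activators BMAL1 (gene Arntl), CLOCK and NPAS2 bind E-box sequences and switch on the period and cryptochrome genes, whose proteins then repress them. A second loop of REV-ERB repressors (Nr1d1, Nr1d2) and ROR activators acts on Arntl and its partners through ROR elements, and another layer of factors, the activators DBP, TEF and HLF against the repressor NFIL3, acts through D-boxes. Through these 3 kinds of site the clock times metabolism in hepatocytes, and in mice fed freely it runs beside signals from feeding, temperature and glucocorticoids. Steatohepatitis is fat storage in the liver with inflammation and cell injury, and it is followed by cell division that replaces lost cells.

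Total counts were 33.0 to 42.5 M reads per library at ZT20 and 41.0 to 49.7 M at ZT8 (two-sided exact permutation p = 0.0857 with a smallest possible value of 0.0286, 0.600 after adjustment over 7 library measures). The shares of counts taken by Alb, by the 10 most abundant genes, by mitochondrially encoded genes and by globins did not differ beyond the spread (exact p of 0.686 or more). In the cdHFD livers the summed level of 6 Kupffer cell markers was 1068 to 1088 CPM (counts per 1e6 reads of a library, scaled by TMM) at ZT20 and 880.5 to 994 CPM at ZT8, against 196 to 429 CPM and 99.8 to 357 CPM in chow livers at the same times. Hepatocyte markers stood at 42884 to 53141 CPM at ZT20 and 40758 to 57760 CPM at ZT8 in cdHFD livers, against 114011 to 138443 CPM and 117448 to 165124 CPM in chow livers. Hepatocyte RNA was thus present as the tissue label says, and the name steatohepatitis rests on the study's own description, since no histology was used here. No marker list held a called gene in this comparison, and the part of cell makeup in the results was not tested. Within the 8 cdHFD libraries the first principal component (32.6% of variance) put the 2 ZT20 females at one end and ZT8 replicate 2 at the other, so the counts of this comparison, over all genes and in the lists described below, are given without single livers too where that moved them by over 1.5 times. The 4 cdHFD ZT2 livers were spread widely, with Dbp at 1.75, 3.44, 76.4 and 191 CPM, and leaving them out of the fit gave 355 higher and 298 lower genes for the comparison reported here.

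At ZT20, 288 genes were higher and 283 were lower than at ZT8 in cdHFD livers at an adjusted p under 0.05 in edgeR's quasi-likelihood test, which is 3.2% of the 17853 genes tested (1.61% higher and 1.59% lower). An unadjusted p under 0.05 was reached by 12.7%. Nearest to the threshold, Zmym3 had an adjusted p of 0.0499 and was called, and Fdx1 had 0.0506 and was not. At least 2-fold changes made up 162 of the higher and 139 of the lower genes. The livers of the 2 times did not overlap for 281 of the 288 higher and 267 of the 283 lower genes, together 3.07% of the genes tested. Among all genes, called or not, livers did not overlap for 14.2% (7.29% higher and 6.88% lower). Of the higher genes 266 had their highest mean of the 4 times at ZT20 and 250 their lowest at ZT8. Of the lower genes 267 had their lowest mean at ZT20, while their highest mean lay at ZT8 for 217 and at ZT14 for 61. Because a liver is measured whole, fewer cells of a type and less RNA per cell cannot be told apart in any of these values. With 1 library left out, higher genes were fewest without ZT8 replicate 2 (150 higher, 150 lower) and lower genes were fewest without ZT20 replicate 3 (200 higher, 131 lower). There were 185 higher and 135 lower genes without ZT20 replicate 4, and 213 and 186 without ZT8 replicate 4. Scaled by total counts alone, which put the median of all genes at 0.10 on the log2 scale against 0.0075 with TMM, 380 genes were higher and 187 lower, so that higher genes made up 67.0% of calls in place of 50.4%.

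Core clock genes changed on both sides, with 3 of 19 tested members higher at ZT20 and 8 lower, beside 1.61% and 1.59% of all genes. Their median log2 change was -0.39 beside 0.0075 for all genes. The higher ones were the activators. Npas2, the partner of BMAL1 that can stand in for CLOCK (chromosome 1, 39193731 to 39363236), was at 14, 9.60, 10.9 and 10.6 CPM in the ZT20 livers and at 0.194, 0.0959, 0.262 and 0.223 CPM in the ZT8 livers. Every ZT20 liver thus lay far above every ZT8 liver, with a log2 change of 5.83 ± 0.73 (SE from the spread pooled over all 32 libraries, n = 4 livers each, adjusted p = 0.000112). Arntl, which encodes BMAL1 (chromosome 7, 113207465 to 113314126), had 28.6, 27.1, 17.8 and 18.4 CPM at ZT20, against 0.986, 0.863, 1.01 and 1.44 CPM at ZT8. Its log2 change was 4.37 ± 0.59 (adjusted p = 7.42e-05), and both ZT20 males stood above both ZT20 females. Clock itself moved less, with 25.3 to 31.1 CPM at ZT20 and 11.5 to 14.9 CPM at ZT8 (log2 change 1.05 ± 0.26, adjusted p = 0.00897). Values in chow livers were 4.17 ± 0.73 for Npas2, 4.5 ± 0.59 for Arntl and 1.12 ± 0.26 for Clock, and no difference between the diets was called for any of the 3.

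**Figure D1:**
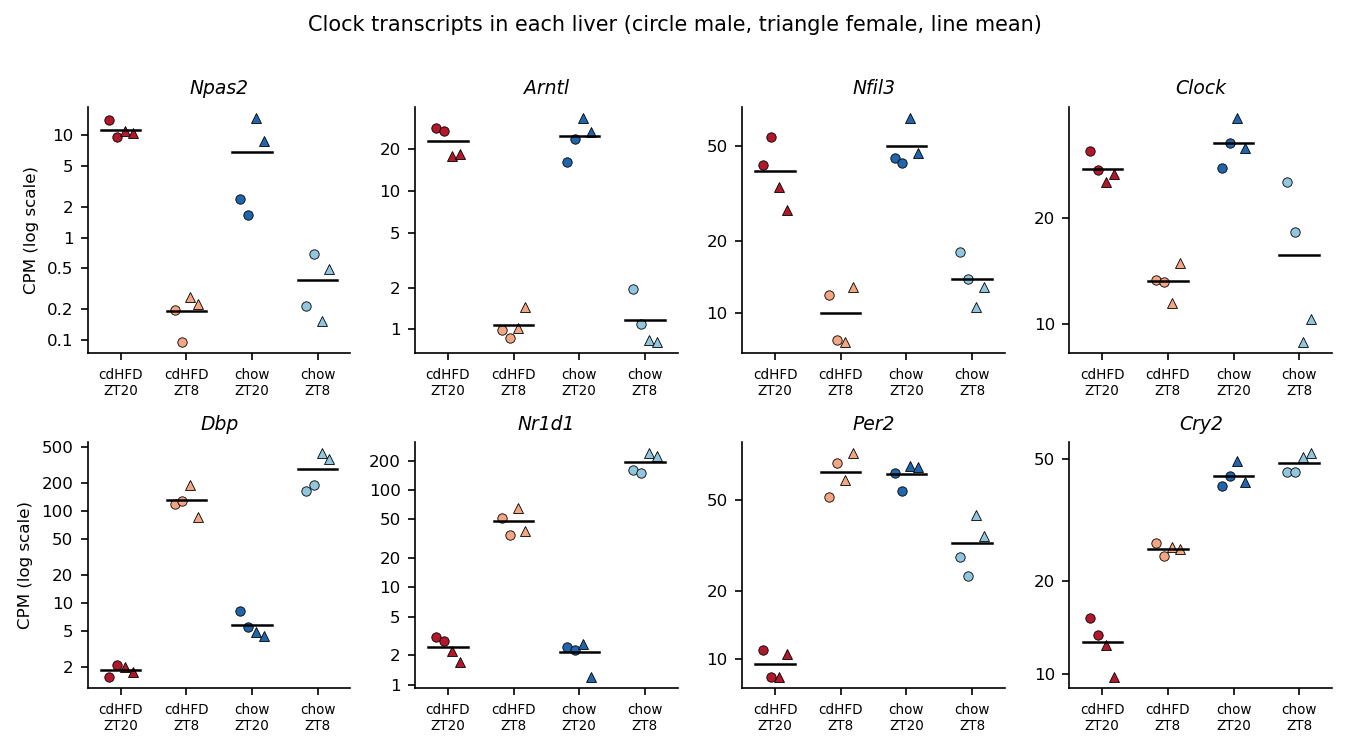
CPM of 8 clock transcripts on a log scale in each liver (circles males, triangles females, lines group means) for cdHFD ZT20, cdHFD ZT8, chow ZT20 and chow ZT8. Npas2 and Arntl are high at ZT20 and Dbp and Nr1d1 low at ZT20 in both diets, while Per2 is low at ZT20 in cdHFD livers (8.34 to 11 CPM) and high at ZT20 in chow livers (54.6 to 70.7 CPM).

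Dbp, Ciart and both REV-ERB genes were lower at ZT20. Dbp, the D-box activator that the clock drives directly (chromosome 7, 45705088 to 45710203), had 1.56, 2.14, 2.00 and 1.78 CPM at ZT20, against 118, 127, 191 and 87.0 CPM at ZT8, the largest decrease among the named genes (log2 change -6.12 ± 0.88, adjusted p = 0.000606). Ciart, a repressor of the BMAL1 complex (chromosome 3, 95878503 to 95882251), had 0.432, 1.15, 0.718 and 0.411 CPM at ZT20 and 15.2, 23.9, 24.7 and 13.8 CPM at ZT8 (-4.82 ± 0.70, adjusted p = 0.000384). The groups of neither gene overlapped. Nr1d1, the gene of REV-ERB alpha, stood at 1.69 to 3.09 CPM at ZT20 and at 34.6 to 65.5 CPM at ZT8 (-4.23 ± 0.78, adjusted p = 0.00114), and Nr1d2 at 6.33 to 9.82 CPM and 47.5 to 72.8 CPM (-2.86 ± 0.46, adjusted p = 0.000223). Bhlhe40, another clock repressor, fell by 1.18 on the log2 scale (adjusted p = 0.0131), a call that ended without ZT20 replicate 3 (0.0823), ZT20 replicate 4 (0.0783) or ZT8 replicate 2 (0.0779).

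All 3 period genes fell at ZT20. Per3 had 2.37, 2.34, 2.63 and 2.56 CPM at ZT20, against 27.0, 30.7, 40.2 and 29.1 CPM at ZT8 (-3.68 ± 0.57, adjusted p = 0.000545). Per2 had 11, 8.34, 8.36 and 10.5 CPM at ZT20, against 51.9, 73.0, 61.6 and 80.3 CPM at ZT8 (-2.79 ± 0.48, adjusted p = 0.00070). Per1 had 10.5, 12.5, 9.43 and 8.09 CPM at ZT20, against 72.8, 63.0, 73.8 and 63.7 CPM at ZT8 (-2.73 ± 0.42, adjusted p = 0.000191). The ZT20 livers were close to one another in all 3 genes, and every ZT20 liver lay far below every ZT8 liver. Cry2, a cryptochrome repressor, had 9.74 to 15.2 CPM at ZT20 and 24.1 to 26.6 CPM at ZT8 (-1.0 ± 0.14, adjusted p = 9.84e-05). Members not called included Cry1 (0.92 ± 0.43, adjusted p = 0.347), Rora (0.43 ± 0.21), Bhlhe41 (-1.16 ± 0.63), Csnk1d (0.11 ± 0.10), Csnk1e (0.00 ± 0.12) and Fbxl21 (-0.26 ± 0.29).

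Promoter letters are shown for genes that moved in step with these loops, as RefSeq windows of 250 bases before to 50 bases after a transcript start on GRCm38.p6. The E-box CACGTG is shown in a clock repressor that holds several and in a period gene, the D-box in the direction in which it was found, and the ROR element in genes higher at ZT20. Capitals mark the motif, read 5′ to 3′ on the gene's strand.
Ciart, 3 E-boxes, chr3:95882253-95882358, minus strand: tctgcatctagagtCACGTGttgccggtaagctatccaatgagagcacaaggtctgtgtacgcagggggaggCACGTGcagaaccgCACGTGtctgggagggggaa
Per1, E-box, chr11:69098758-69098813, plus strand: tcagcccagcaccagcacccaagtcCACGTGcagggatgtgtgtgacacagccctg
Per3, 2 D-boxes, chr4:151044796-151044890, minus strand: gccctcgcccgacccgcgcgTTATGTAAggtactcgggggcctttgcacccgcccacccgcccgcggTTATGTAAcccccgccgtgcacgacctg
Coq10b, D-box, chr1:55052583-55052640, plus strand: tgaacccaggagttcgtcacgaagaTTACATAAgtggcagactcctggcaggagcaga
Leo1, ROR element, chr9:75441433-75441492, plus strand: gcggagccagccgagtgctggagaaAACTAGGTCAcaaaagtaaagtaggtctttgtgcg
Tjp3, ROR element, chr10:81291758-81291817, minus strand: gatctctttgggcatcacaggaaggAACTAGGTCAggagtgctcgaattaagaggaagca
The Per1 window lies before a RefSeq start that is inside the longer annotated span of the gene (69095217 to 69109960). Coq10b, Tjp3 and Leo1 were picked for their motifs after their values had been seen.

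Windows could be matched by symbol for 218 of the 288 higher genes, 224 of the 283 lower genes and 12241 of all tested genes. The D-box, searched as TTATGTAA or TTACGTAA on both strands (TTACATAA is the reverse strand of TTATGTAA), was present for 10 of the 224 lower genes (4.46%), for 0 of the 218 higher genes and for 0.931% of all. The ROR element, an A/T-rich stretch before GGTCA as in the capitals above, was present for 6 of the 218 higher genes (2.75%), for 1 of the 224 lower genes (0.446%) and for 0.621% of all. The E-box did not show such a split, with 12.4% of higher, 12.5% of lower and 11% of all genes. These matches are a description of letters in short windows, and they are not evidence that a factor bound there. Genes with a D-box among the lower ones were Per3, Coq10b, Ak4, Homer2, Wnt5b, Map2k6, Timeless, Gde1, Baz1b and Ipo5. In that order, their log2 changes in chow livers were -1.63, -1.75, -0.59, -0.17, 1.31, -0.67, 0.80, 0.28, -0.02 and -0.36. In chow livers Wnt5b (adjusted p = 0.00095) and Timeless (0.0482) were called higher at ZT20, and Coq10b (2.39e-05) and Ipo5 (0.00822) lower. Coq10b, which encodes a carrier protein for coenzyme Q, had 13.7, 15.5, 14.3 and 13.4 CPM at ZT20 and 55.2, 57.9, 68.0 and 64.7 CPM at ZT8 (-2.10 ± 0.27, adjusted p = 1.33e-05). Genes with a ROR element among the higher ones were Arntl, Ddc, Tjp3, Leo1, Arsg and 1300002E11Rik. Tjp3, a protein of tight junctions, had 78.0, 73.6, 73.4 and 82.5 CPM at ZT20 and 19.1, 24.7, 20.9 and 27.1 CPM at ZT8 (1.74 ± 0.24, adjusted p = 2.38e-05). Both pairs of groups were cleanly separated, and the changes in chow livers were -1.75 for Coq10b and 2.04 for Tjp3.

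Of 14 tested members of the list of PAR bZIP factors and clock outputs, 9 were lower at ZT20 and 2 higher, beside 1.59% and 1.61% of all genes. Tef, a D-box activator of the same family as Dbp, had 17.5, 16.9, 16 and 14.2 CPM at ZT20, against 128, 147, 155 and 133 CPM at ZT8 (-3.11 ± 0.40, adjusted p = 3.48e-05). Usp2, a deubiquitinating enzyme, had 8.46, 4.81, 5.04 and 5.71 CPM at ZT20 and 47.3, 66.7, 63.8 and 64.7 CPM at ZT8 (-3.31 ± 0.40, adjusted p = 1.51e-05). Hlf, a further activator, moved less, with 13.6 to 18.1 CPM at ZT20 and 30.6 to 45.1 CPM at ZT8 (-1.22 ± 0.16). Por, the electron donor of microsomal cytochromes P450, fell by 1.69 ± 0.28 and Wee1, a kinase that holds cells before mitosis, by 1.54 ± 0.32. The 2 higher members were Nfil3, the D-box repressor, with 41.8, 54.6, 33.7 and 27.0 CPM at ZT20 and 11.9, 7.71, 7.60 and 12.9 CPM at ZT8 (1.95 ± 0.35, adjusted p = 0.00086), and Leo1, a subunit of the PAF1 elongation complex (0.91 ± 0.17). Repressor and activators of the D-box thus stood on opposite sides at the same hour. Upp2, a uridine phosphorylase outside the list, fell as far, with 9.02 to 22.8 CPM at ZT20 and 83.7 to 203 CPM at ZT8 (-3.32 ± 0.50, adjusted p = 0.000211).

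Set against chow, the same 12 h comparison gave 1039 higher (5.82%) and 958 lower genes (5.37%), 11.2% of those tested, more than the 571 of cdHFD livers. The cdHFD count depends on the libraries that share the spread. Fitted on the 8 cdHFD libraries alone, 777 genes were higher and 827 lower, and no such fit was made for chow. Called in both diets and in the same direction were 194 genes, 34.0% of the cdHFD calls and 9.71% of the chow calls, and 18 genes were called in opposite directions. The difference between the diets was tested as an interaction (the cdHFD change minus the chow change), and it was called for 508 genes (2.85%), 212 upwards (1.19%) and 296 downwards (1.66%). Of these 508, 134 were called in cdHFD, 328 were called only in chow and 46 in neither. Among the 288 genes higher at ZT20 in cdHFD livers, 57 differed from chow, and 43 of these had the opposite sign there. Among the 283 lower genes, 77 differed and 68 had the opposite sign in chow. Picking genes called both in cdHFD and for the diet difference favours opposite signs. Of all 288 higher genes 221 (76.7%) had the same sign in chow, and of all 283 lower genes 185 (65.4%). The interaction called 438 genes upwards and 469 downwards in DESeq2, and between 96 and 194 upwards and between 143 and 306 downwards when 1 library was left out, with the lowest values without ZT8 replicate 2 (96 upwards) and ZT8 replicate 4 (143 downwards) of cdHFD. Fewer by over 1.5 times in at least 1 direction were the counts without any one of the 4 cdHFD ZT20 livers, cdHFD ZT8 replicates 2 and 4, chow ZT20 replicates 2 and 4, or chow ZT8 replicates 2 and 4.

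**Figure D2:**
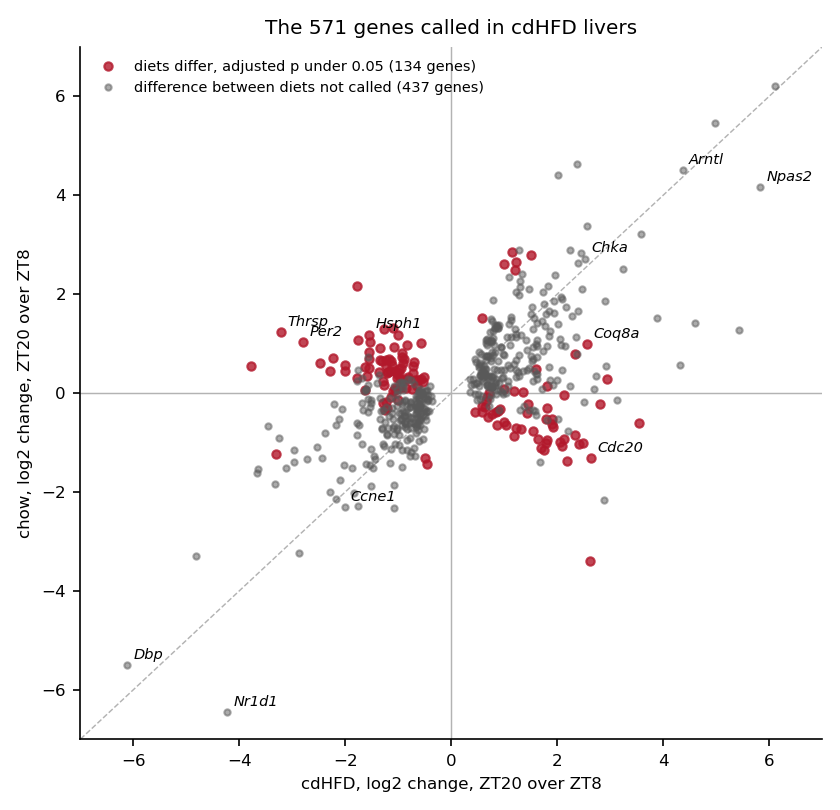
Log2 change at ZT20 over ZT8 in cdHFD livers (horizontal axis) and in chow livers (vertical axis) for the 571 genes called in cdHFD; the dashed line marks equal changes. The 134 genes whose change differed between the diets (red) lie mostly in the quadrants of opposite sign, as Per2, Thrsp and Cdc20 do, while Arntl and Dbp lie near the line. Of all genes called in cdHFD, 221 of 288 higher and 185 of 283 lower genes had the same sign in chow.

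Within the core clock list, Per2 and Cry2 were among the members whose change differed between the diets, both downwards. Per2 was lower at ZT20 in cdHFD livers, while chow livers held 65.8, 54.6, 70.7 and 70.02 CPM at ZT20 and 28.1, 23.1, 43.1 and 34.9 CPM at ZT8 (1.03 ± 0.48, adjusted p = 0.136 in chow; difference between the diets -3.82 ± 0.68, adjusted p = 0.00147). In cdHFD its highest mean of the 4 times was at ZT8 (66.7 ± 12.5 CPM, SD), and in chow it was at ZT14 (100.02 ± 24.3 CPM). Cry2 stood in chow livers at 40.9 to 49.1 CPM at ZT20 and 45.4 to 52.2 CPM at ZT8 (difference between the diets -0.87 ± 0.20, adjusted p = 0.0177, and 0.0505 without cdHFD ZT20 replicate 4). For Dbp, Arntl, Npas2, Nr1d1, Nr1d2, Per1, Per3 and Ciart no difference between the diets was called, which does not show that their changes were equal.

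Genes of cell division separated the 2 times in cdHFD livers in opposite directions. Of 28 tested members of the list of DNA replication and the G1/S transition, 16 were lower at ZT20 and 0 higher. Of all genes 1.59% were lower. The log2 change was negative in all 28 members (median -1.01). Of 26 tested members of the mitosis list, 16 were higher and 1 (Wee1, also counted among the clock outputs) was lower. Of all genes 1.61% were higher. The log2 change was positive in 25 members (median 1.43). Summed over the list, the mitosis transcripts stood at 427, 432, 528 and 469 CPM in the ZT20 livers and at 178, 120.0, 199 and 189 CPM in the ZT8 livers. The replication transcripts stood at 322, 318, 386 and 356 CPM at ZT20 and at 661, 636, 751 and 790 CPM at ZT8. Neither sum overlapped between the times. In chow livers the mitosis sum was 35 to 48.5 CPM at ZT20 and 46.6 to 86.3 CPM at ZT8, below every cdHFD liver at these times. There 0 mitosis members were called higher and 1 lower, and 2 replication members higher and 1 lower. Of all genes 5.82% were higher and 5.37% lower in chow livers.

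**Figure D3:**
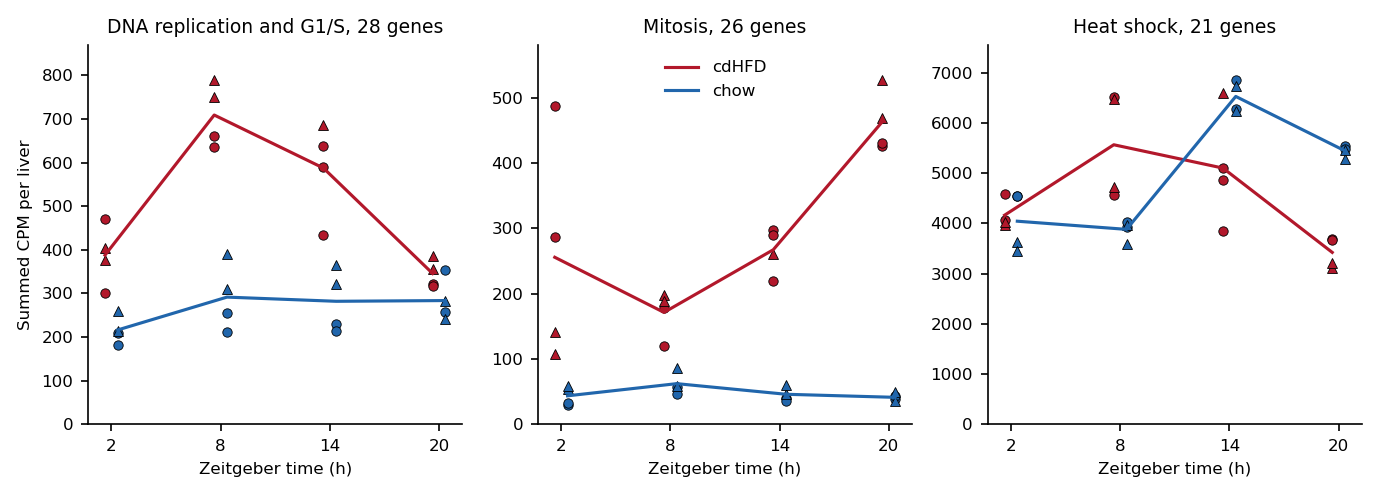
Summed CPM of the replication, mitosis and heat shock lists in each liver (circles males, triangles females) against zeitgeber time, with lines through the means of cdHFD (red) and chow (blue) livers. In cdHFD livers the replication sum is highest at ZT8 (636 to 790 CPM) and the mitosis sum higher at ZT20 (427 to 528 CPM) than at ZT8 (120.0 to 199 CPM), and the 4 cdHFD livers at ZT2 are widely spread in mitosis transcripts.

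Among the replication genes Cdc6, which loads the MCM helicase onto origins, had 1.05, 1.19, 1.98 and 1.30 CPM at ZT20, against 6.62, 7.92, 8.34 and 7.54 CPM at ZT8 (-2.48 ± 0.54, adjusted p = 0.00186). Uhrf1, which maintains DNA methylation behind the replication fork, had 4.63, 5.68, 8.73 and 6.42 CPM at ZT20 and 26.1, 25.4, 34.8 and 32 CPM at ZT8 (-2.23 ± 0.46, adjusted p = 0.00167). Ccne1, the cyclin E1 that starts S phase, had 1.28 to 2.68 CPM at ZT20 and 6.90 to 9.65 CPM at ZT8 (-2.01 ± 0.25, adjusted p = 1.51e-05). In all 3 genes the ZT8 livers lay above every ZT20 liver. Of the 6 subunits of the MCM helicase that the list holds, Mcm2 (-1.30), Mcm3 (-1.37), Mcm4 (-1.36), Mcm5 (-1.75) and Mcm6 (-1.55) were lower and Mcm7 (-0.66) was not called. Mcm5 kept its call in only 1 of the 8 fits that each left out a library, with an adjusted p of up to 0.0997. The licensing factor gene Cdt1 fell by 1.67 and the helicase activator gene Cdc45 by 1.64. The count of 16 was 12 to 14 when 1 of the 8 libraries was left out, 2 in females alone and 3 in males alone.

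Among the mitosis genes Plk1, the polo-like kinase that drives entry into mitosis, had 24.1, 22.6, 31.9 and 26.2 CPM at ZT20, against 5.54, 3.20, 6.18 and 5.93 CPM at ZT8 (2.33 ± 0.54, adjusted p = 0.00388). Its call held in each fit that left out 1 library. Cdc20, the activator of the anaphase-promoting complex, had 50.1, 48.7, 50 and 53.1 CPM at ZT20 and 8.35, 5.70, 10.9 and 7.56 CPM at ZT8 (2.64 ± 0.71, adjusted p = 0.0167, with 0.0798 without ZT8 replicate 2 and 0.0592 without ZT8 replicate 4). Ccnb1, which encodes cyclin B1, had 22.8 to 23.3 CPM at ZT20 and 2.51 to 5.68 CPM at ZT8 (2.49 ± 0.79, adjusted p = 0.0236). Leaving out ZT20 replicate 1 or any single ZT8 library took its adjusted p to between 0.0512 and 0.110. The ubiquitin-conjugating enzyme gene Ube2c rose by 2.13, the kinesin genes Kif20a by 2.13 and Cenpe by 1.89, and the spindle gene Nusap1 by 1.93. Outside the list, the DNA helicase gene Pif1 (2.80 ± 0.51, adjusted p = 0.000309) and Fam83d, a spindle-associated gene (2.50 ± 0.66, adjusted p = 0.0124, and 0.0704 without ZT8 replicate 2), were among the 12 largest increases. All 26 members were separated between the livers of the 2 times (25 higher and 1 lower), beside 14.2% of all genes tested. Yet the count of 16 was 5 without ZT8 replicate 2 and 10 without ZT8 replicate 4. It was 25 when the fit held only these 8 libraries, 21 with the cdHFD ZT2 livers left out, 4 in females alone and 11 in males alone.

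The difference between the diets was called downwards for 11 of 28 replication genes, beside 1.66% of all genes. It was called upwards for 8 of 26 mitosis genes, beside 1.19% of all genes. Cdc6 in chow livers had 0.409 to 0.972 CPM at ZT20 and 0.0899 to 0.644 CPM at ZT8, so that the difference between the diets was -3.09 ± 0.76 (adjusted p = 0.0172, and 0.0562 without chow ZT20 replicate 2). Plk1 in chow livers had 0.622 to 1.14 CPM at ZT20 and 0.696 to 2.79 CPM at ZT8 (difference between the diets 3.19 ± 0.77, adjusted p = 0.0135). The count of 11 was 7 without cdHFD ZT20 replicate 1 or cdHFD ZT8 replicate 2, 5 without cdHFD ZT8 replicate 4 or chow ZT8 replicate 4, and 4 without chow ZT20 replicate 2. The count of 8 was 4 without cdHFD ZT8 replicate 2, 5 without cdHFD ZT8 replicate 4 and 3 without chow ZT8 replicate 3. Ccne1 was an exception, since it fell at ZT20 in chow livers too (-2.31 ± 0.25), with 0.771 ± 0.139 CPM at ZT20 and 3.87 ± 1.64 CPM at ZT8 (SD, n = 4 each). The 5 tested neutrophil markers summed to 21.3, 26.2, 75.8 and 46.2 CPM at ZT20 and to 29.5, 21.6, 18.7 and 20.8 CPM at ZT8, and stellate cell markers to 141 to 181 CPM and 118 to 156 CPM. Their part in the cell division result was not tested.

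**Figure D4:**
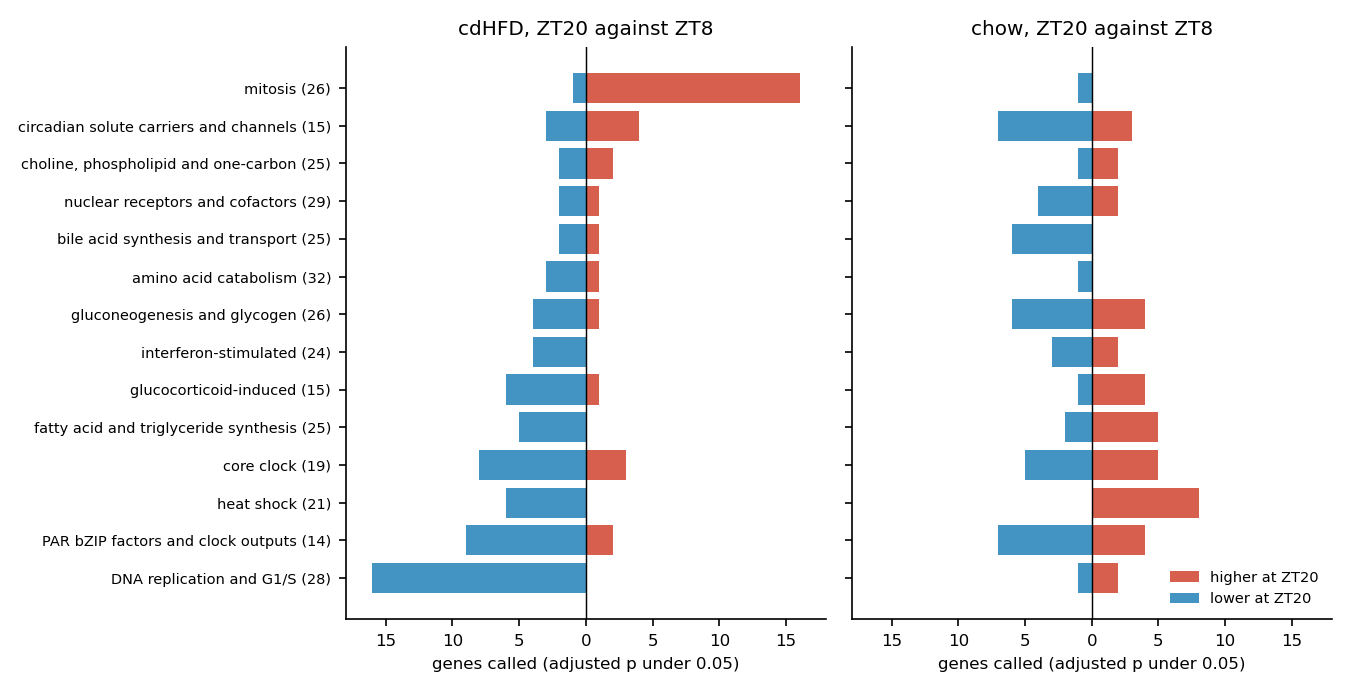
Number of genes called higher (right of 0) and lower (left of 0) at ZT20 against ZT8 in cdHFD livers (left panel) and chow livers (right panel), for the 14 lists with at least 3 called members in cdHFD and with the number tested in brackets. Mitosis (16 higher) and DNA replication (16 lower) stand out in cdHFD livers, and heat shock genes are called lower in cdHFD (6) and higher in chow (8).

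Heat shock genes, whose products refold proteins and which in liver follow body temperature, were lower at ZT20 in cdHFD livers for 6 of 21 tested members and higher for 0. Of all genes 1.59% were lower. In chow livers 8 members were higher and 0 lower, beside 5.82% of all genes higher. Hspa8, the constitutive HSP70, had 915, 1006, 870.1 and 784 CPM at ZT20, against 1649, 2628, 1886 and 2576 CPM at ZT8 (-1.29 ± 0.23, adjusted p = 0.000715). Hsph1, which encodes the exchange factor HSP110, had 41.2, 30.8, 21.5 and 19.5 CPM at ZT20 and 64.8, 109.7, 51.2 and 102 CPM at ZT8 (-1.55 ± 0.36, adjusted p = 0.00441). Every ZT20 liver was below every ZT8 liver in both genes, and ZT8 replicates 2 and 4 were the highest. In chow livers Hsph1 was the other way round, with 61.0 to 87.3 CPM at ZT20 and 26.7 to 35.7 CPM at ZT8 (1.18 ± 0.36, adjusted p = 0.0151; difference between the diets -2.73 ± 0.50, adjusted p = 0.00119). The other lower members were Dnajb1 (-1.09 ± 0.23), Dnaja1 (-1.07 ± 0.22), Stip1 (-0.57 ± 0.13) and Hspa1b (-2.29 ± 0.56), the last of which lost its call in 5 of the 8 fits that left out a library. Hsp90aa1 and Hspb1, which rose in chow livers by 1.83 and 2.75, had -0.46 and 0.16 in cdHFD livers and were not called there.

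The difference between the diets was called for 15 of the 21 heat shock genes, all downwards, beside 1.66% of all genes. The list's sum stood at 3122 to 3691 CPM at ZT20 and 4559 to 6524 CPM at ZT8 in cdHFD livers, and at 5290 to 5553 CPM and 3591 to 4033 CPM in chow livers. The 2 diets thus had their sums in opposite order, with no overlap within either. In cdHFD the 4 ZT8 livers stood at 4559, 6524, 4718 and 6478 CPM, so that replicates 1 and 3 were low and replicates 2 and 4 high. The count of 15 was 7 without cdHFD ZT20 replicate 3, cdHFD ZT8 replicate 2 or cdHFD ZT8 replicate 4, 8 without cdHFD ZT20 replicate 4 or chow ZT20 replicate 4, and 9 without chow ZT8 replicate 3 or 4.

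Genes of lipid synthesis that passed the test were lower at ZT20. Of 25 tested genes of fatty acid and triglyceride synthesis, 5 were lower and 0 higher in cdHFD livers, and 5 were higher and 2 lower in chow livers. Of all genes 1.59% were lower in cdHFD livers, and 5.82% were higher and 5.37% lower in chow livers. Thrsp, a promoter of lipogenesis known from its response to thyroid hormone, had 27.4, 18.2, 13.3 and 18.5 CPM at ZT20, against 83.3, 262, 206 and 172 CPM at ZT8 (-3.21 ± 0.47, adjusted p = 0.000191). In chow livers it stood at 1414, 1974, 572 and 1131 CPM at ZT20 and at 496, 489, 723 and 507 CPM at ZT8 (1.23 ± 0.47, adjusted p = 0.0742). The difference between the diets was -4.44 ± 0.67 (adjusted p = 0.000441). Lpin1, the phosphatidate phosphatase of triglyceride synthesis, fell in both diets, by 2.29 ± 0.49 in cdHFD and 2.00 ± 0.49 in chow. Srebf1, the transcription factor of lipogenesis, had 187, 146, 86.1 and 132 CPM at ZT20 and 188, 421, 336 and 293 CPM at ZT8 (-1.16 ± 0.32, adjusted p = 0.0225), a narrow separation whose call ended without ZT20 replicate 3 (0.124), ZT20 replicate 4 (0.0856), ZT8 replicate 2 (0.164) or ZT8 replicate 3 (0.0565). Lpin2 (-0.99) and Mid1ip1 (-1.23, with an adjusted p of 0.0677 without ZT8 replicate 2) completed the 5, a count that was 3 without any one of those 4 libraries. Fasn, which encodes fatty acid synthase, was not called in cdHFD (-0.49) but rose in chow (0.91), and its difference between the diets was called. None of the 25 tested genes of cholesterol synthesis and uptake was called at either side in cdHFD.

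Metabolic enzymes outside lipid synthesis gave some of the cleanest separations. Coq8a, a kinase-like protein needed to make coenzyme Q (chromosome 1, 180165238 to 180199602), had 266, 253, 189.7 and 227 CPM at ZT20, against 37.4, 41.5, 46.9 and 31.4 CPM at ZT8, and the smallest adjusted p among the named genes (2.57 ± 0.24, adjusted p = 2.86e-07). Its change in chow livers was smaller, 1.0 ± 0.24 with 497 ± 122 CPM at ZT20 and 252 ± 36.9 CPM at ZT8 (SD, n = 4 each), and the diets differed by 1.57 ± 0.34 (adjusted p = 0.00721). Chka, the choline kinase that starts phosphatidylcholine synthesis (chromosome 19, 3851773 to 3894369), had 291, 266, 251 and 261 CPM at ZT20 and 35.1, 32.7, 50.03 and 64.3 CPM at ZT8 (2.52 ± 0.31, adjusted p = 1.33e-05). In chow livers its change was 2.72 ± 0.31, and no difference between the diets was called (-0.20 ± 0.44, adjusted p = 0.891). Etnk2, an ethanolamine kinase of the parallel branch, went the opposite way, with 49.7 to 108 CPM at ZT20 and 224 to 342 CPM at ZT8 (-1.74 ± 0.26, adjusted p = 9.00e-05). Chka and Etnk2 belong to the list of choline, phospholipid and one-carbon metabolism, of whose 25 tested members 4 were called, beside 3.2% of all genes. Mtrr, which encodes methionine synthase reductase, is also a member (-0.51 ± 0.10, adjusted p = 0.0167). Its call ended without ZT20 replicate 3 (0.0790), ZT20 replicate 4 (0.0836) or ZT8 replicate 4 (0.0501).

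**Figure D5:**
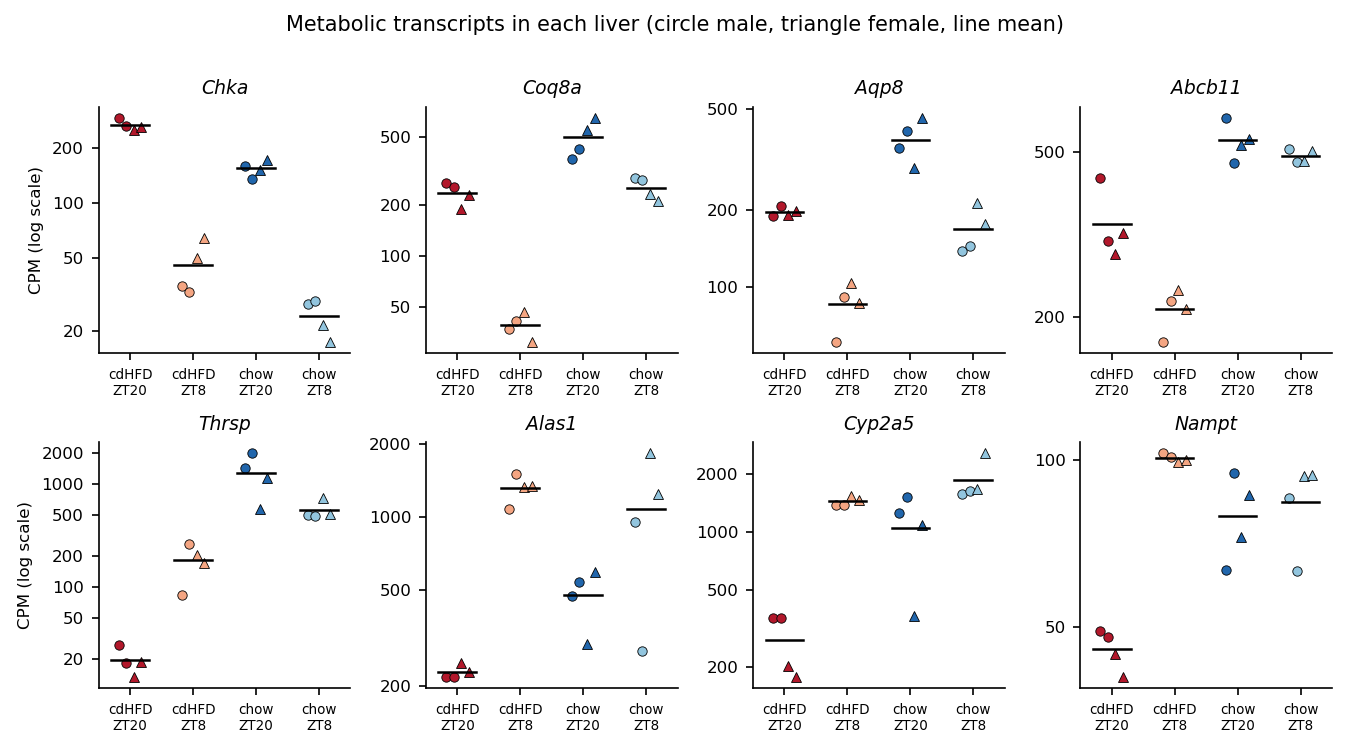
CPM of 8 metabolic transcripts on a log scale in each liver (circles males, triangles females, lines group means) for cdHFD ZT20, cdHFD ZT8, chow ZT20 and chow ZT8. Chka, Coq8a, Aqp8 and Abcb11 are higher at ZT20 in cdHFD livers, and Thrsp, Alas1, Cyp2a5 and Nampt are lower, with no overlap between the 2 times.

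Alas1, the rate-limiting enzyme of heme synthesis, had 217, 217, 247 and 229 CPM at ZT20, against 1077, 1499, 1328 and 1338 CPM at ZT8 (-2.53 ± 0.49, adjusted p = 0.00173). Heme is the cofactor of cytochromes P450, of which Cyp2a5 and Cyp2e1 were the 2 called among 25 tested, both lower. Of all genes 1.59% were lower. Cyp2a5 had 359.8, 361, 204 and 177 CPM at ZT20 and 1391, 1392, 1544 and 1479.8 CPM at ZT8 (-2.39 ± 0.39, adjusted p = 0.000191). Cyp2e1 had 1401 to 2357 CPM at ZT20 and 3256 to 4892 CPM at ZT8 (-1.21 ± 0.23, adjusted p = 0.00146). Reads of Cyp2a5 may be shared with its close paralogs, and how the authors counted such reads is not given in the sources used here. Nampt, the rate-limiting enzyme of NAD salvage, had 49.3, 48.1, 44.8 and 40.7 CPM at ZT20 and 103, 101, 99.3 and 100.2 CPM at ZT8. The 4 ZT8 livers were nearly equal, and the log2 change was -1.14 ± 0.16 (adjusted p = 9.00e-05). In chow livers its groups overlapped, at 63.4 to 94.8 CPM at ZT20 and 63.2 to 94.3 CPM at ZT8, and the diets differed by -1.06 ± 0.23 (adjusted p = 0.00918).

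Of 26 tested genes of gluconeogenesis and glycogen, 4 were lower and 1 higher at ZT20, beside 1.59% and 1.61% of all genes. The glycogen synthase gene Gys2 had 67.3 to 85.6 CPM at ZT20 and 166 to 209 CPM at ZT8 (-1.27 ± 0.25, adjusted p = 0.00152), and the glucose-6-phosphate transporter gene Slc37a4 had 45.7 to 93.9 CPM and 137 to 234 CPM (-1.28 ± 0.21, adjusted p = 0.00034). Pfkfb1, which sets the level of the glycolytic signal fructose 2,6-bisphosphate, fell by 0.96 ± 0.20 in cdHFD livers and differed from chow by -1.45 ± 0.28 (adjusted p = 0.00354). Ppp1r3c, a glycogen-targeting subunit of protein phosphatase 1, was the member that rose, with 69.0, 33.7, 27.8 and 33.9 CPM at ZT20 and 4.38, 11.6, 9.23 and 7.66 CPM at ZT8 (2.28 ± 0.51, adjusted p = 0.0129, and 0.0515 without ZT20 replicate 1, the highest liver). Of 15 genes induced by glucocorticoids, 6 were lower and 1 higher, beside 1.59% and 1.61% of all genes. They split by gene in chow, where 4 were higher and 1 lower, beside 5.82% and 5.37% of all genes. Zbtb16, a zinc-finger repressor, had 1.98 to 3.25 CPM at ZT20 and 6.02 to 9.33 CPM at ZT8 (-1.58 ± 0.36, adjusted p = 0.00680). The count of 6 was 3 without ZT20 replicate 3 or 4 and 2 without ZT8 replicate 2, and the higher member, Ddit4 (1.95), lost its call without ZT20 replicate 2 (0.0749) or without ZT8 replicate 2 (0.0764), 3 (0.0677) or 4 (0.0542). Tsc22d3, a glucocorticoid-induced leucine zipper, fell by 1.01 in cdHFD livers and rose by 1.18 in chow livers (difference between the diets -2.19 ± 0.42, adjusted p = 0.00180).

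Membrane transport and nuclear receptors gave smaller groups. Among 15 solute carriers and channels known to cycle, 4 were higher and 3 lower, beside 1.61% and 1.59% of all genes. The count of 4 was 1 without ZT8 replicate 2 and 2 without ZT20 replicate 3, ZT20 replicate 4 or ZT8 replicate 3. The count of 3 was 1 in each fit that left out 1 library except those without ZT20 replicate 2 (4) and ZT8 replicate 4 (3). Aqp8, an aquaporin of the hepatocyte, had 190.0, 208, 192 and 198 CPM at ZT20 and 60.6, 90.8, 104 and 85.9 CPM at ZT8 (1.22 ± 0.21, adjusted p = 0.000552), with a like change in chow livers (1.19 ± 0.21). Ppara, the receptor that drives fatty acid oxidation, had 8.18 to 9.23 CPM at ZT20 and 14.7 to 20.02 CPM at ZT8 (-0.95 ± 0.17, adjusted p = 0.000849). Of the 25 tested bile acid genes 1 was higher and 2 were lower, beside 1.61% and 1.59% of all genes. The export pump gene Abcb11 rose, with 285 to 434 CPM at ZT20 and 174 to 233 CPM at ZT8 (0.69 ± 0.12, adjusted p = 0.00212). The sterol exporter genes Abcg5 (-1.08 ± 0.24, adjusted p = 0.00399) and Abcg8 (-1.09 ± 0.29, adjusted p = 0.0222) fell. The call for Abcg8 ended without ZT20 replicate 3 (0.117), ZT20 replicate 4 (0.0777), ZT8 replicate 1 (0.0935) or ZT8 replicate 2 (0.0812). Rbm3, a cold-inducible RNA-binding protein, had 37.0 to 46.3 CPM at ZT20 and 69.3 to 78.0 CPM at ZT8 (-0.81 ± 0.15, adjusted p = 0.00157).

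Among genes of inflammation, 4 of 24 interferon-stimulated genes were lower at ZT20 and 0 higher, beside 1.59% of all genes lower, and the median log2 change of the list was -0.39. Of the 4, only Usp18, a brake on interferon signalling, kept its call in all 8 fits that left out a library. It had 18.2, 20.5, 20.9 and 19.7 CPM at ZT20 and 37.8, 40.7, 41.3 and 36.2 CPM at ZT8 (-0.98 ± 0.23, adjusted p = 0.00625). The count of 4 was 2 without ZT20 replicate 1 or 3 and 1 without ZT20 replicate 4 or ZT8 replicate 2. Of 12 genes of NF-kB feedback 2 were higher, beside 1.61% of all genes. They were Tnfaip2, a gene induced by tumour necrosis factor, with 63.4 to 72.4 CPM at ZT20 and 34.9 to 45.8 CPM at ZT8 (0.75 ± 0.18, adjusted p = 0.0104), and Nfkb2, a subunit of NF-kB, with 44.3 to 51.8 CPM and 26.4 to 34.7 CPM (0.59 ± 0.17, adjusted p = 0.0492). Neither gene overlapped between the times, but the call for Nfkb2 ended in 7 of the 8 fits that left out a library and that for Tnfaip2 without ZT8 replicate 4 (0.0513). Of 26 acute phase genes 1 was higher and 1 lower, beside 1.61% and 1.59% of all genes. Cd14, a co-receptor for bacterial lipopolysaccharide, had 45.1 to 113 CPM at ZT20 and 23.5 to 41.1 CPM at ZT8 (1.19 ± 0.33, adjusted p = 0.0167), and its call ended without ZT20 replicate 3 (0.0915) or without ZT8 replicate 2 (0.0677), 3 (0.0872) or 4 (0.0866). ZT20 replicate 3 was the highest liver for Cd14 and for the neutrophil markers (75.8 CPM), whose part in this result was not tested. Il6ra, the interleukin 6 receptor gene, had 13.9 to 17.3 CPM at ZT20 and 26.7 to 30 CPM at ZT8 (-0.84 ± 0.24, adjusted p = 0.0330), a call that ended in 5 of the 8 such fits. No member was called in the lists of chemokines and cytokines, class II antigen presentation, complement and coagulation, lipid droplet genes, apolipoproteins, the urea cycle, cytosolic ribosomal proteins, the respiratory chain, the proteasome or lysosomes. Self-tests on simulated counts recovered 51% of 2-fold and 86% of 4-fold changes in this comparison, so smaller changes in those lists could have been missed.

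Other named genes with large and stable changes had scattered roles. Rnf144a, a ubiquitin ligase gene, had 9.41 to 12.6 CPM at ZT20 and 1.28 to 2.70 CPM at ZT8 (2.47 ± 0.44, adjusted p = 0.000384), with a like change in chow livers (2.10 ± 0.44). Tmem171, which encodes a membrane protein, had 2.16 to 5.52 CPM at ZT20 and 0.460 to 0.752 CPM at ZT8 (2.45 ± 0.42, adjusted p = 0.000544). Of 22 tested p53 targets 2 were higher, beside 1.61% of all genes. Bbc3, the gene of the pro-death protein PUMA, had 14.1 to 30.6 CPM at ZT20 and 8.42 to 13.1 CPM at ZT8 (1.12 ± 0.20, adjusted p = 0.000715), and the death receptor gene Fas had 28.2 to 33.6 CPM and 15 to 21.5 CPM (0.70 ± 0.15, adjusted p = 0.00633). Both kept their calls in each fit that left out 1 library. Herpud1, a gene of protein disposal at the endoplasmic reticulum, was the 1 called of 24 in its list, beside 3.2% of all genes. It had 61.4 to 179 CPM at ZT20 and 259 to 376 CPM at ZT8 (-1.46 ± 0.31, adjusted p = 0.00248).

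Males and females were compared through the female change minus the male change, and 0 genes were called in edgeR, with 361 genes at an unadjusted p under 0.05 (2.02% of those tested) and 0 called in DESeq2. With 2 livers per sex and time this does not show that the sexes changed alike. Fitted alone, the 4 males gave 80 higher and 37 lower genes and the 4 females 86 higher and 113 lower. Dbp was called in both. Nr1d1 had a log2 change of -4.71 in females (adjusted p = 0.00559) and of -3.87 in males (0.134), and Per2 had -2.91 in females (0.0914) and -2.69 in males (0.00362).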

How the data were processed

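RNA from 32 mouse livers was sequenced as poly-A libraries that do not mark strand, so reads of a gene and of its antisense partner cannot be told apart. The authors deposited raw counts per gene, made with HISAT2 and featureCounts on GRCm38 (mm10), per the submitters' processing notes, which also name DESeq2; no source used here gives versions or says how reads that fit several genes were treated. The RNA integrity number was above 6.5, per the labels' protocols.

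From these counts, 17853 of 54532 genes passed edgeR's filterByExpr over the 8 groups (19743 genes had no count). One quasi-likelihood model (edgeR 4.0.16, limma 3.58.1, R 4.3.3; robust, TMM scaling, terms for group and sex) was fitted to all 32 libraries, and p-values were adjusted by Benjamini-Hochberg over the whole table, and 0.05 was the threshold. CPM values are TMM-scaled. The SE beside a log2 change comes from a linear model of log2 CPM (prior count 2) and is another estimator than the test. It pools the spread over all 32 libraries, so it is not the spread of the compared livers alone. The difference between diets is the interaction term, and the sex difference is the female change minus the male change in a model with a group for each sex. The fit was tested on simulated counts. Alternatives were relative log expression, total counts, no filter, a filter of 1 CPM in 4 libraries, DESeq2 1.42.0, no sex term and a replicate block. Others were the 8 libraries alone, all libraries of each sex alone and each library left out. A fit without the 4 cdHFD ZT2 libraries was added after seeing the data. Replicates differed beyond sampling noise in all 24 pairs compared (chi-square per degree of freedom 20.7 to 267). Total counts were 33.0 to 42.5 M at ZT20 and 41.0 to 49.7 M at ZT8 in cdHFD livers, and the SDs given are over livers.

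The comparison, the lists and the alternatives were chosen with earlier results of these data known. Genes named in the text are the 12 largest changes each way among called protein-coding genes with a mean of at least 1 CPM and no overlap between livers, up to 4 called members of each of 63 gene lists, the core clock genes and the 6 largest diet differences each way. Other list members are named as examples of their list, and motif genes as stated; a few genes that the rule names are not reported here. Promoter windows are RefSeq's, on GRCm38.p6. Gene coordinates are those of the annotation of the same build, GENCODE M21, in which 54495 of the gene IDs were found.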

Additional observations from a re-analysis of the deposited data

Results flagged for a closer look

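In 7 of 202 groups of 4 livers, 1 liver stood apart from the other 3 by Dixon's test, where chance gives about 1 in 20 groups. At ZT20, Ppp1r3c was at 69.0 CPM in replicate 1 against 27.8 to 33.9 CPM in the other livers, Nolc1 at 38.1 CPM in replicate 1 against 31.9 to 32.3 CPM, and Csnk1e at 20.5 CPM in replicate 3 against 16.8 to 17.3 CPM. At ZT8, replicate 1 stood apart for Usp2 (47.3 CPM, others 63.8 to 66.7 CPM), Lpin1 (91.2 CPM, others 31.4 to 40.9 CPM) and Trib3 (63.7 CPM, others 13.9 to 22.2 CPM). Slc37a4 was at 234 CPM in ZT8 replicate 2, against 137 to 153 CPM in the others.

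The change at ZT20 over ZT8 differed between cdHFD and chow livers for 33 named genes in edgeR's interaction test, given here as the log2 change in cdHFD minus that in chow. Among clock genes and outputs it was -3.82 for Per2, -0.87 for Cry2, -2.08 for Usp2 and -1.06 for Nampt. Among genes of cell division it was -3.09 for Cdc6, -2.94 for Uhrf1, 3.97 for Cdc20, 3.56 for Cenpf, 3.5 for Ccnb1, 3.44 for Ckap2, 3.19 for Plk1 and 3.03 for Pif1. Heat shock genes had -2.74 (Hspa1b), -2.73 (Hsph1), -1.53 (Hspa8) and -1.14 (Dnajb1). Genes of lipid and energy metabolism had -4.44 (Thrsp), -3.95 (Angptl8), -1.77 (Mid1ip1), -1.62 (Ppard), -1.45 (Pfkfb1), -1.26 (Prodh), -0.83 (Mtrr), 1.57 (Coq8a) and 3.52 (Aqp7). Trib3, a pseudokinase gene of the stress response, had 3.58, with 26 to 96.5 CPM at ZT20 and 13.9 to 63.7 CPM at ZT8 in cdHFD livers, against 3.17 to 4.95 CPM and 16.7 to 27.9 CPM in chow livers. The remaining genes were Trpv1 (-5.83), 2210011C24Rik (-5.24), Tnnc1 (-4.11), Pdxp (-3.96), Oasl1 (-1.80), Nolc1 (-0.87) and C330021F23Rik (2.67). The values of Trpv1 in cdHFD ZT20 and chow ZT8 livers, of Aqp7 in chow ZT20 livers and of 2210011C24Rik in chow ZT8 livers rest on very few counts, so these sizes depend on the prior count of the fit. Of the 33 calls, 19 held in every fit that left out 1 library and 14 were lost in at least 1.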

How the results depend on the processing

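With total counts alone as scaling, 187 genes were lower in cdHFD livers (380 higher), the diet difference had 133 upwards, and chow had 1565 higher and 490 lower genes; the median of all genes was then 0.10 on the log2 scale in cdHFD and 0.14 in chow. Without the expression filter, cdHFD had 495 lower genes, the diet difference 334 upwards and 503 downwards, and the sex difference 25 upwards and 18 downwards. DESeq2 called 424 higher and 423 lower genes in cdHFD livers, and 438 upwards and 469 downwards for the diet difference. Without the sex term, cdHFD had 245 higher and 221 lower genes. The 8 libraries alone gave 777 higher and 827 lower genes, males alone 80 and 37, and females alone 86 and 113. Leaving out 1 library gave 150 to 238 higher and 131 to 274 lower genes in cdHFD, 96 to 194 and 143 to 306 for the diet difference, and 632 to 958 and 571 to 829 in chow. Results of named genes kept their direction and their side of the threshold in 2274 of 2709 refits, lost the call with the same direction in 414, gained a call in 14 and reversed in 7. The reversals were Aqp7 in females alone (0.0161) and Csnk1e, whose change was near 0, without the filter (-0.00698), in females alone (-0.0574) and between -0.0563 and 0.0801 with 1 library left out. The causes were not tested.

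Replicate numbers gave no clear sign of pairing: the residuals of equally numbered samples correlated at 0.0258, 0.168, 0.0204 and 0.165 after group and sex. Replicates 2 and 4 correlated best with their own number, and replicates 1 and 3 did not. These 4 correlations are too few to show that the samples are unpaired. With the replicate number as a block, 260 genes were higher and 254 lower. The depth limits calls for genes of few counts, and the simulated 2-fold changes were recovered in only 51% of cases.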
